A study of Mus musculus with 22 samples.

Results

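The variable segments of the mouse T cell receptor genes were described in RNA sequencing libraries of mouse TH2 cells, the helper T cells that make the type 2 cytokines and were polarized in culture. A segment was included if its symbol starts with Trav, Trbv, Trgv or Trdv and if it had at least 10 counts summed over the 22 libraries. This left 93 of the 170 variable segment rows among the 49671 genes of the table. Segments were chosen by their summed count in these libraries, so that they were detected is no finding. The cells came from wild-type (WT) Balb/c mice of both sexes, obtained at 6 to 8 weeks of age and bred for 2 generations on diets with 400, 1000 or 4000 IU of vitamin D3 per kg. RNA was taken at day 5 of polarization. In 11 libraries the cells had received 100 nM calcitriol, the active hormone made from vitamin D, for the last 24 hours, and in 11 libraries 2% ethanol as vehicle. Whether the calcitriol cultures held ethanol too, and the mouse, sex, diet and culture of each library, are not given in the labels. They could not enter a test. The p-values rest on the variation among libraries, which may in part be technical.

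T cells assemble their receptor genes in the thymus by joining a variable segment to a joining segment. For the beta and delta chains a diversity segment lies between them. Splicing then links the product to a constant segment. Helper T cells carry a receptor of an alpha chain, encoded with a Trav segment, and a beta chain, encoded with a Trbv segment, while gamma-delta T cells use Trgv and Trdv segments. The share of a population's receptor transcripts that carries a given segment, its usage, therefore reports on which cells make up the population. A mature T cell does not exchange its Trbv segment when it is stimulated. In bulk RNA, fewer cells with a segment and less receptor RNA per cell cannot be told apart.

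The library totals ran from 3214171 counts (calcitriol replicate 2) to 20258430 (vehicle replicate 10), and the 93 segments together held between 0.0316% and 0.0393% of them. Markers of T helper cells (Cd3e, Cd4, Trac, Trbc2, Lat and Lck) summed to 2365 ± 88.2 CPM (counts relative to the library total after TMM scaling; SD, n = 11) in the vehicle libraries. Marker sums of CD8 T, gamma-delta T, NK, B and myeloid cells reached at most 16.8 CPM in a vehicle library and 16.1 in a calcitriol library, and Rag2, Ptcra and Ncr1 were listed at 0. Vehicle replicates 1 and 2 and calcitriol replicates 1 and 2 stood apart from the other 18 libraries on the second principal component. Each library was also joined to its most alike library of the group, by deviations from the group mean over the tested genes outside the variable segments. This gave 5 sets of 2 or 3 libraries in each group. The rule leaves no library alone. Correlations with the most alike library ran from 0.125 (calcitriol replicates 10 and 11) to 0.434 (vehicle replicates 10 and 11). What these sets are is not given in the labels, and results are given below without the 4 libraries and with sets summed where this changes them.

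The 4 loci were covered very unequally. The 25 Trbv segments (22 annotated as functional and 3 as pseudogenes) held 53640 counts, between 838 and 5924 per library. The 63 Trav segments (60 functional and 3 pseudogenes) held 12927 counts, between 173 and 1459 per library. The 4 Trdv segments held 275 counts and the single Trgv segment 14. Of the rows that were left out, 53 of the 128 Trav rows and 6 of the 35 Trbv rows had no count in any library. Just inside the limit of 10 counts were Trav18 with 10, Trav6n-5 with 12 and, with 14 each, Trgv2 and Trav23, and just outside it were Trav14-3 with 9, Trav8-1 with 7 and the pseudogene Trbv18 with 6. In the annotation of build GRCm38 the Trbv segments lie on chromosome 6 between 40891229 and 41558452. All but 1 of them precede the constant genes Trbc1 and Trbc2 on the plus strand. Trbv31 lies beyond Trbc2 on the minus strand and is joined by inversion. The Trav segments lie on chromosome 14 between 52427928 and 53977678, ahead of Trac at 54220521 to 54224206.

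The last 45 transcribed bases of a variable segment hold the codon of the conserved cysteine at which the hypervariable junction begins. They are shown for the 5 Trbv segments whose level differed between the groups and for the 4 others that the results turn on. Sequences were read from the GENCODE M21 transcripts on GRCm38 and are written 5′ to 3′ on the segment's own strand, with the bases TGTGCNAGC in capitals where they occur.
Trbv2, chr6:41047951-41047995, plus strand: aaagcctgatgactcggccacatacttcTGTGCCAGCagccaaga
Trbv1, chr6:40891841-40891885, plus strand: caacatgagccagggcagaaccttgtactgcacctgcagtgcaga
Trbv13-1, chr6:41116424-41116468, plus strand: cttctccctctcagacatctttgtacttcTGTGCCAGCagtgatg
Trbv13-2, chr6:41121788-41121832, plus strand: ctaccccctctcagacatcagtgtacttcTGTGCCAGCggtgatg
Trbv13-3, chr6:41130541-41130585, plus strand: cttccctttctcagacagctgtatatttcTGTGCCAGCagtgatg
Trbv17, chr6:41163512-41163556, plus strand: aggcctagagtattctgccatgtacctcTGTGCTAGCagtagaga
Trbv19, chr6:41179004-41179048, plus strand: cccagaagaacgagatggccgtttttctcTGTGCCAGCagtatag
Trbv29, chr6:41271837-41271881, plus strand: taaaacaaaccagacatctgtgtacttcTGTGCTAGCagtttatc
Trbv31, chr6:41557691-41557735, minus strand: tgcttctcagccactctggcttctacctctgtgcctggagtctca

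Searched on the transcript strand only, TGTGCNAGC occurred in the last 45 bases of 20 of the 25 Trbv members (80%) and of 21 of all 35 Trbv rows (60%). It occurred in 0 of 128 Trav rows, so in these windows the letters mark Trbv ends and no Trav end. Trbv1 and Trbv31, the most used Trbv segments of these libraries, were among the 5 Trbv members without it. The 3 segments of the Trbv13 family, the Vβ8 family of the older nomenclature, are the closest relatives among the segments shown. Over their annotated exons Trbv13-2 and Trbv13-3 were 90.6% identical, and Trbv13-1 was 87.9% identical to Trbv13-2. Even so, 99.7% of the 50-base windows of Trbv13-2 and 100% of those of Trbv13-1 occurred in no other annotated transcript.

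Trbv usage was spread over few segments. Per exonic length, Trbv31 (Vβ14) made up 14.2 ± 1.0% of the Trbv counts of a library (SD over 22 libraries), Trbv1 (Vβ2) 13.5 ± 1.33% and Trbv13-1 13.4 ± 1.66%. These 3 lay within 1 SD of one another. Trbv13-2 followed with 10.2 ± 1.23% per length, Trbv19 (Vβ6) with 9.09 ± 0.82%, Trbv20 with 7.19 ± 0.82%, Trbv2 (Vβ4) with 6.71 ± 0.82% and Trbv29 (Vβ7) with 6.38 ± 2.05%. Trbv13-3, Trbv12-2, Trbv14 and Trbv17 took between 2.36% and 3.89% each on this scale. In plain counts, with no length correction, the 4 leading segments (Trbv31, Trbv1, Trbv19 and Trbv13-1) held 53.0 ± 2.16% of the Trbv counts and the 10 leading ones 88.8 ± 1.22%. The 12 segments under 1% each held 4.11% together, and the 3 pseudogenes 0.517%. All shares below are of plain counts within a locus.

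**Figure D1:**
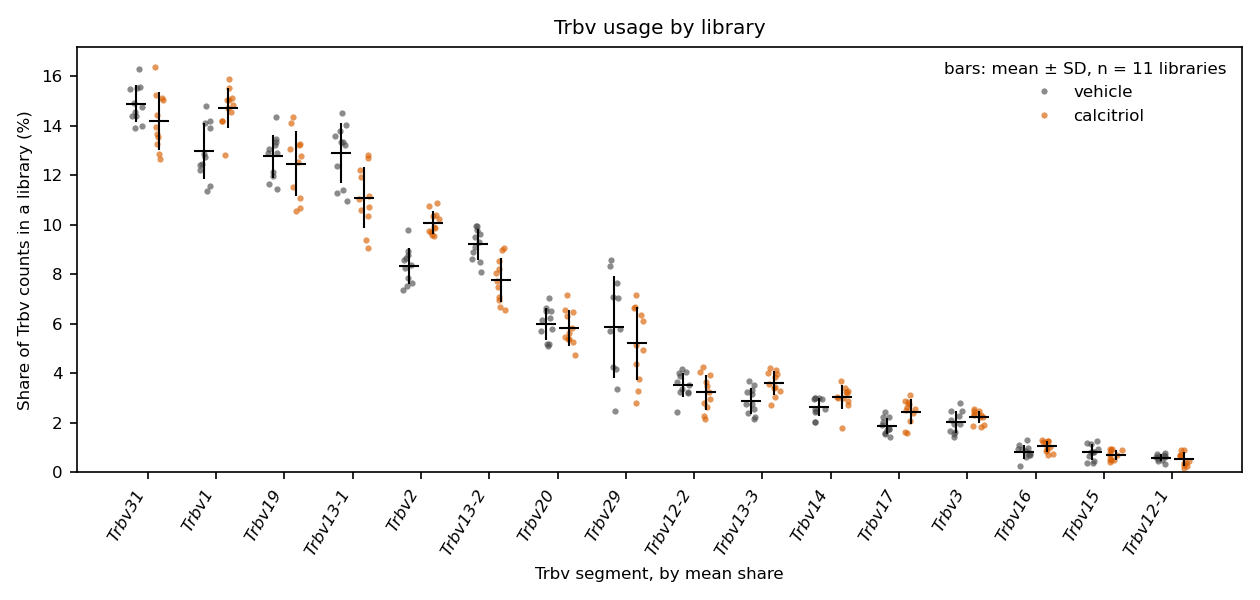
Share of the Trbv counts of a library (y axis, percent of counts) for the 16 Trbv segments with the most counts that were tested (x axis, by mean share), with 1 point per library and mean ± SD of 11 libraries per group. Trbv29 has the widest spread in both groups, and the calcitriol points of Trbv2 and Trbv1 sit mostly above the vehicle points while those of Trbv13-1 and Trbv13-2 sit mostly below.

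The spread between libraries was a few times the counting error at most, except for Trbv29, where it was far beyond it. Among the 13 Trbv segments with a mean share of at least 1%, the variance of the counts within groups was a median of 1.94 times that expected from counting alone, from 1.06 (Trbv2) to 16.2 (Trbv29). After Trbv29 came Trbv19 with 3.11, Trbv12-2 with 3.03 and Trbv13-1 with 3.003. The share of Trbv29 ran from 2.49% (vehicle replicate 11) over a median of 5.78% to 8.60% (vehicle replicate 5) in the vehicle libraries. In the calcitriol libraries it ran from 2.81% over 5.13% to 7.16%. The calcitriol shares all lay within the wider vehicle range. The difference between the groups was not past the threshold (log2 change -0.13 ± 0.21 SE, edgeR adjusted p = 0.687). The sets of alike libraries differed in it. With sets summed, Trbv29 took 8.03%, 6.39%, 6.20%, 5.10% and 3.06% of the Trbv counts in the 5 vehicle sets. In the 5 calcitriol sets it took 6.81%, 6.21%, 5.91%, 4.43% and 2.996%. Libraries of 1 set could differ widely too. In the vehicle set at 6.20%, replicates 5, 6 and 9 had 8.60%, 7.05% and 4.16%. Replicate 9 had joined that set with a correlation of 0.227. Trbv2 differed far less between sets, from 7.72% to 8.86% in vehicle and from 9.78% to 10.3% in calcitriol.

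Segments whose T cells are deleted by endogenous superantigens were used little, with 1 exception, but so were other functional segments. Superantigens of mouse mammary tumour proviruses in the Balb/c genome delete, in the thymus, T cells whose beta chain carries Vβ3 (Trbv26), Vβ5 (Trbv12-1 and Trbv12-2), Vβ11 (Trbv16) or Vβ12 (Trbv15). In these libraries the 5 segments summed to 5.80 ± 0.85% of the Trbv counts (n = 22), from 4.26% to 7.13%. Trbv12-2 alone made up 3.37 ± 0.63%, and the 4 others together 2.42 ± 0.51%. Trbv16 had a share of 0.941%, Trbv15 of 0.757%, Trbv12-1 of 0.565% and Trbv26, with 77 counts in all, of 0.160%. Both groups overlapped, at 5.93 ± 0.80% with vehicle and 5.66 ± 0.92% with calcitriol (n = 11 each). Of the 4 that could be tested none passed: Trbv16 was nearest, at 2.31 ± 0.83 CPM with vehicle and 3.03 ± 0.62 with calcitriol (log2 change 0.36 ± 0.18 SE, edgeR adjusted p = 0.128). Without vehicle replicate 4 its adjusted p was 0.049. Over all libraries Trbv16 had 501 counts, Trbv15 394 and Trbv12-1 304. Functional segments outside this list had fewer, Trbv30 with 239, Trbv5 with 193, Trbv4 with 83, Trbv23 with 57 and Trbv21 with 50. Of these, Trbv5 and Trbv4 had only 22.6% and 27.9% unique 50-base windows, so their counts are less certain. Whether deletion lowered any share was not tested.

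Trav usage was spread over many more segments than Trbv usage. The 10 leading segments held 41.6 ± 2.65% of the Trav counts (n = 22), and 39 segments had a mean share of at least 1%. Per exonic length the order was Trav8d-1 (5.27 ± 0.98%), Trav14d-3-dv8 (4.85 ± 1.05%), Trav3-3 (4.42%), Trav4-4-dv10 (4.34%), Trav7-3 (3.82%), Trav21-dv12 (3.66%), Trav17 (3.66%), Trav7-4 (3.47%), Trav12-3 (3.36%) and Trav6-4 (3.21%), and neighbours in this order differed by less than their spread. The 7 segments with dv in the symbol, which can also be joined to a delta chain, summed to 17.6 ± 1.97% of the Trav counts. The segments whose share varied most on a log2 scale among those of at least 1% were Trav7d-3, Trav10n, Trav14-1, Trav5-4, Trav10d and Trav16n, each with 148 to 175 counts over all libraries. Their variance was only 0.857 (Trav14-1) to 1.79 (Trav7d-3) times that expected from counting. None of the 39 Trav segments exceeded 3 times the counting variance, and 2 exceeded 2 times, Trav15-1-dv6-1 with 2.36 and Trav7-4 with 2.14.

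How many Trav segments were seen went with how unlike the other copies their sequence is. In the reference, whose strain is C57BL/6J and not Balb/c, the Trav locus holds stretches present in several near-identical copies, named with d and n. Whether Balb/c mice carry the same copies was not tested. Of the 60 functional Trav members, a median of 59.0% of the 50-base windows occurred in no other annotated transcript, against 0% for the 48 functional Trav rows that were left out. Of the 42 Trav rows with no such window, 39 had no count at all and 1 was a member. The rank correlation between this percentage and the summed count was 0.64 over all 128 Trav rows and 0.11 over the 63 members, given as a description without a test. Trav14d-3-dv8 had 739 counts, while Trav14-3, 96.9% identical to it, had 9. Trav7-4 (513 counts) and Trav7d-4 (315 counts) are 99.6% identical. How reads that match several copies were counted is not given in the sources used here, so the split of counts among such copies is uncertain. For Trbv this limit is small, with a median of 100% unique windows among its 25 members. Trbv5 (22.6%) and Trbv4 (27.9%) had few unique windows, but no near-identical copy among the segments. Their most alike segment, Trbv2, was 63.0% and 63.1% identical to them. Distance from the constant gene had a rank correlation of 0.12 with the count over the 63 Trav members and 0.21 over the 25 Trbv members.

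**Figure D2:**
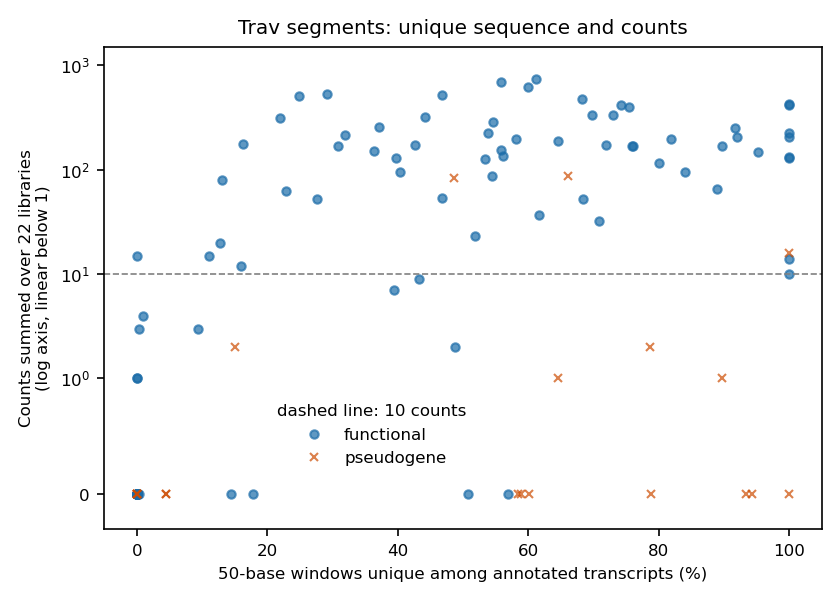
Counts of each Trav segment summed over 22 libraries (y axis, log scale, linear below 1) against the percentage of its 50-base windows that occur in no other annotated transcript (x axis), with functional segments as circles and pseudogenes as crosses. Of the 42 segments at 0%, 39 have no count, and members above the dashed line at 10 counts are spread over the whole axis.

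Segments of other T cell types were at the edge of detection. Trdv1 had 177 counts over all libraries, from 2 to 23 in each, Trdv2-2 had 36, Trdv5 33 and Trdv2-1 29, and summed Trdv levels were 1.46 ± 0.72 CPM with vehicle and 1.33 ± 0.45 with calcitriol (n = 11 each). Trdc, the delta constant gene, had 274 counts. Since the delta locus lies inside the alpha locus, transcripts of these segments do not by themselves mark gamma-delta cells. Trgv2 had 6 counts each in vehicle replicates 10 and 11 and 1 each in vehicle replicates 7 and 8, and 0 in the other 7 vehicle and all 11 calcitriol libraries. It reached the limit of 10 counts through the vehicle libraries alone, so that its level was lower with calcitriol is no finding. Of its 14 counts 12 came from 2 libraries, and it had too few counts for the test. The 6 gamma segments that carry Tcrg-V symbols had 14 counts together. Trav11 and Trav11d, the segments of the invariant receptor of NKT cells, were listed at 0, but they are identical to each other over their annotated exons and hold no unique 50-base window. Trav1, used by MAIT cells, had 129 counts, at 0.703 ± 0.257 CPM with vehicle. It ran from 0.258 to 0.988 CPM with vehicle and from 0.140 to 1.14 CPM with calcitriol, so the groups overlapped. Zbtb16, the transcription factor of both cell types, fell from 2.05 ± 1.01 to 0.848 ± 0.608 CPM (log2 change -1.39 ± 0.34 SE, edgeR adjusted p = 0.0026), and Klrb1c had 7 counts in all. The part of such cells in the results below was not tested.

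The question put to the groups was whether 24 hours with calcitriol went with a change in the level of variable segments. With calcitriol 4 Trbv segments rose and 1 fell, by at most 0.44 on the log2 scale, and no tested Trav segment passed. With edgeR's quasi-likelihood test, 33 of the 93 segments had enough counts to be tested, 16 Trbv and 17 Trav, and 60 had not. An adjusted p under 0.05 over all 11905 genes was reached by 5 of the 33 (15.2%), against 31.5% of all genes tested. The 5 are all Trbv segments, 5 of 16 (31.2%), a share near the background. Beside these 4 increases and 1 decrease, 16.1% of all genes rose and 15.5% fell. Of the 17 tested Trav segments 2 had an unadjusted p under 0.05, while 46 Trav members were not tested. The median absolute log2 change was 0.18 for the 16 Trbv segments, 0.11 for the 17 Trav segments and 0.15 for all genes tested. No segment had groups that did not overlap at all, a pattern shown by 4.36% of all genes tested. With libraries scaled to the summed Trav and Trbv counts, which turns a level into a usage, 6 segments passed, the same 5 and Trbv13-1 (log2 change -0.20, adjusted p = 0.0384). That scaling called 27% of all genes tested. With surrogate variables 7 passed, 5 higher and 2 lower, beside 41.5% of all genes tested. With sets of alike libraries summed, 2 of the 62 segments then tested passed, and 2063 of 13501 genes (15.3%).

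**Figure D3:**
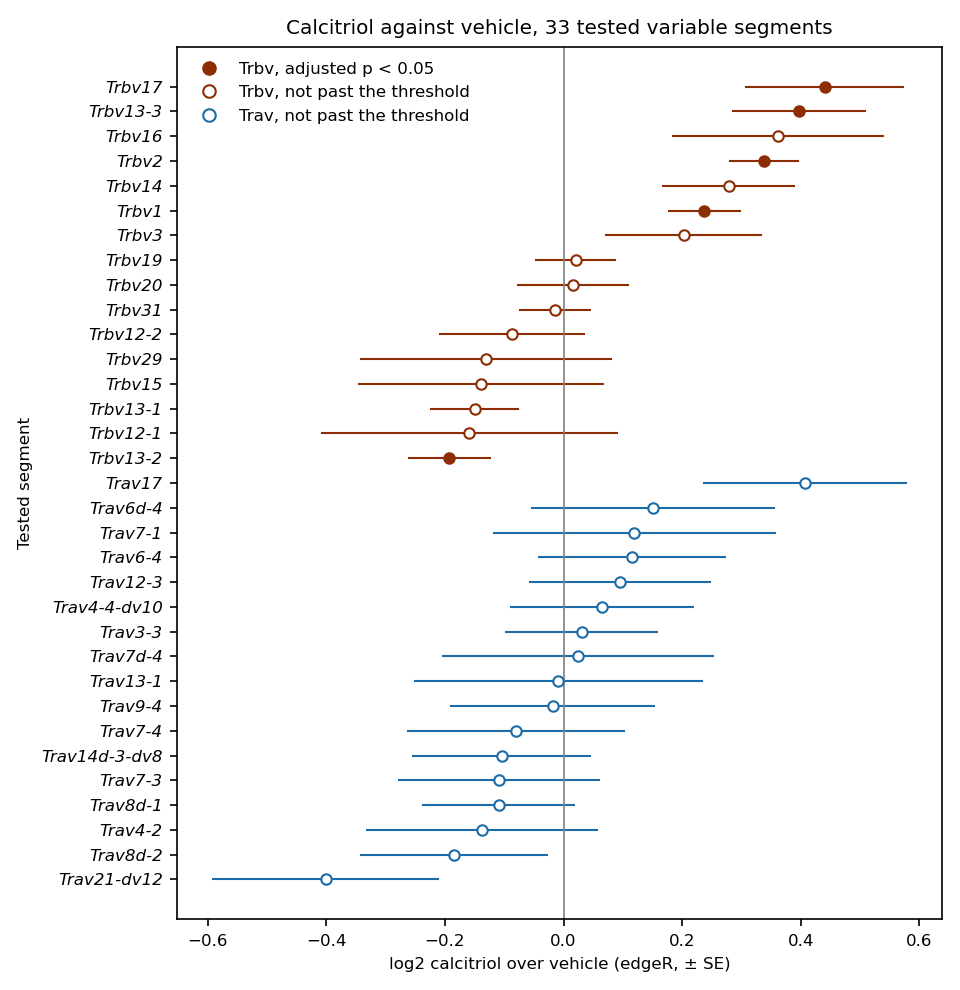
log2 change of calcitriol over vehicle (x axis, edgeR estimate ± SE) for the 33 tested segments (y axis), Trbv in brown and Trav in blue, filled where the adjusted p is under 0.05. The 4 filled points to the right are Trbv17, Trbv13-3, Trbv2 and Trbv1, the filled point to the left is Trbv13-2, and no Trav point is filled.

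Trbv2 (Vβ4) had the smallest p. With vehicle its level ran from 20.6 over a median of 23.0 to 26.7 CPM, and with calcitriol from 25.8 over 29.6 to 33.7 CPM. Of the calcitriol libraries 8 lay above every vehicle library and the other 3 within the vehicle range. The mean rose from 23.2 ± 1.92 to 29.2 ± 2.57 CPM (SD, n = 11; log2 change 0.34 ± 0.06 SE, edgeR adjusted p = 6.5e-05). Its usage went from 8.34 ± 0.72% to 10.1 ± 0.46% of the Trbv counts. With sets summed, the lowest calcitriol set (9.78%) was above the highest vehicle set (8.86%), and the adjusted p was 0.00567.

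Trbv1 (Vβ2), the segment farthest from the constant genes, ran from 27.8 over 35.6 to 42.7 CPM with vehicle and from 38.9 over 42.8 to 48.9 CPM with calcitriol. Of the calcitriol libraries 7 lay above every vehicle library. The mean rose from 36.1 ± 4.12 to 42.5 ± 2.89 CPM (log2 change 0.24 ± 0.06 SE, edgeR adjusted p = 0.0041), and usage from 13.0 ± 1.13% to 14.7 ± 0.82%. With sets summed the adjusted p was 0.0379.

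Trbv13-3 ran from 5.72 over 8.34 to 10.8 CPM with vehicle and from 7.27 over 10.4 to 13.0 CPM with calcitriol, so the groups overlapped over much of their range and 5 calcitriol libraries were above every vehicle library. Its mean rose from 8.05 ± 1.56 to 10.4 ± 1.65 CPM (log2 change 0.40 ± 0.11 SE, edgeR adjusted p = 0.0077). Trbv17 ran from 3.73 over 4.80 to 7.14 CPM with vehicle and from 4.49 over 7.31 to 8.99 CPM with calcitriol, 6 of the 11 calcitriol libraries lying above every vehicle library. Its mean rose from 5.26 ± 1.083 to 7.08 ± 1.52 CPM (log2 change 0.44 ± 0.13 SE, edgeR adjusted p = 0.012). Neither passed with sets summed, at adjusted p of 0.101 for Trbv13-3 and 0.0525 for Trbv17, although the log2 changes were alike at 0.37 and 0.44.

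Trbv13-2, which precedes Trbv13-3 in the locus with the pseudogene Trbv12-3 between them, moved the other way. Its level ran from 23.5 over 25.9 to 28.03 CPM with vehicle and from 17.6 over 22.3 to 27.2 CPM with calcitriol, and 7 calcitriol libraries lay below every vehicle library. The mean fell from 25.6 ± 1.75 to 22.4 ± 2.99 CPM (log2 change -0.19 ± 0.07 SE, edgeR adjusted p = 0.035). Its call was lost without the 4 libraries lowest on the second component (adjusted p = 0.0679), with sets summed (0.153) and with no filter on low counts (0.108). Leaving out any 1 of 9 libraries also ended it, with adjusted p-values of 0.0502 (vehicle replicate 1), 0.0588 (vehicle replicate 3), 0.0583 (vehicle replicate 6), 0.0655 (vehicle replicate 10), 0.0646 (calcitriol replicate 1), 0.0634 (calcitriol replicate 3), 0.0556 (calcitriol replicate 4), 0.0519 (calcitriol replicate 7) and 0.0599 (calcitriol replicate 9). Trbv13-1, the other member of the family, had a log2 change of -0.15 ± 0.08 SE (adjusted p = 0.134), and passed with the usage scaling (0.0384) and with surrogate variables (0.0368). The family as a whole took 25 ± 1.62% of the Trbv counts with vehicle and 22.5 ± 1.96% with calcitriol, and the ranges (22.8% to 27.5% and 19.1% to 25.1%) overlapped.

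The remaining leading Trbv segments differed by less than the spread between libraries. Trbv31 was at 41.5 ± 3.56 CPM with vehicle and 41.0 ± 3.92 with calcitriol, Trbv19 at 35.6 ± 3.82 and 36.0 ± 4.002, Trbv20 at 16.8 ± 2.57 and 16.9 ± 2.78, and Trbv12-2 at 9.86 ± 1.71 and 9.28 ± 1.99. Their log2 changes lay between -0.09 and 0.02, with edgeR adjusted p of at least 0.645. Those of Trbv31, Trbv19 and Trbv20 changed sign under some of the other settings. Among the 17 tested Trav segments the widest differences were in Trav17 and Trav21-dv12, both with no near-identical copy. Trav17 had 1.91 ± 0.45 CPM with vehicle and 2.48 ± 0.78 with calcitriol (log2 change 0.41 ± 0.17 SE, edgeR adjusted p = 0.073). Its adjusted p was 0.0437 without calcitriol replicate 2 and 0.0458 without vehicle replicate 8. Trav21-dv12 had 2.67 ± 0.71 and 2.01 ± 0.69 CPM (log2 change -0.40 ± 0.19 SE, edgeR adjusted p = 0.115), and 0.0454 without calcitriol replicate 3. The other 8 of the 10 leading Trav segments had log2 changes between -0.11 and 0.12. Wider differences were seen in Trav segments with too few counts for the test. Trav10d had 1.16 ± 0.387 CPM with vehicle and 0.674 ± 0.438 with calcitriol (114 and 61 counts). Trav6n-6 had 0.368 ± 0.111 and 0.162 ± 0.176 CPM (35 and 17 counts), with 9 calcitriol libraries below every vehicle library and 1 above. It was picked after its values were seen, and with so few counts single reads set the order of its libraries. Fitted with no filter on low counts, Trav10d and Trav6n-6 had edgeR adjusted p of 0.0852 and 0.205. The 10 segments with n in the symbol summed to 8.11 ± 0.88% of the Trav counts with vehicle and 6.98 ± 1.12% with calcitriol, ranges of 6.85% to 9.64% and 5.20% to 9.33% that overlapped. The standard error of a tested Trav segment was at least 0.13 (Trav3-3) and at most 0.24 (Trav13-1), against 0.06 for Trbv2 and Trbv1.

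The summed level of each locus and the breadth of its usage were alike in both groups. Summed Trbv members were at 279 ± 23.9 CPM with vehicle and 289 ± 16.1 with calcitriol, and summed Trav members at 69.0 ± 4.04 and 67.4 ± 6.50 CPM (n = 11 each). Per 100 counts of Trbc1 and Trbc2 there were 47.3 ± 2.90 Trbv counts with vehicle and 45.9 ± 2.80 with calcitriol, and per 100 Trac counts 23.0 ± 1.30 and 23.2 ± 1.53 Trav counts. The effective number of Trbv segments, the number of equally used segments that would give the same entropy, was 12.4 ± 0.56 with vehicle (11.5 to 13.3) and 12.6 ± 0.38 with calcitriol (11.9 to 13.2). For Trav it was 41.5 ± 2.71 with vehicle (34.6 to 43.6) and 41.2 ± 2.25 with calcitriol (36.3 to 44.5). In all 6 measures the ranges overlapped and the difference between group means was smaller than the SD of either group. The effective number of Trav segments had a rank correlation of 0.63 with the Trav count of a library over 22 libraries. At an equal depth of 173 counts, 47.3 ± 2.08 Trav segments would have been seen with vehicle and 47.3 ± 1.03 with calcitriol. The lowest value at that depth, 41.5, was that of vehicle replicate 2.

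Trbv shares were more alike within a group than between groups, while the medians for Trav were close to each other. By the Bray-Curtis similarity of shares (1 for identical usage), pairs of libraries had a median of 0.930 within groups (110 pairs) and 0.910 between groups (121 pairs) for Trbv, and of 0.800 and 0.805 for Trav. For Trbv, 21 of 22 libraries had a higher median similarity to the libraries of their own group than to those of the other, and for Trav 7 of 22. The closest library by this measure was of the same group for 19 of 22 libraries by Trbv and for 16 of 22 by Trav, where 47.6% of the other libraries are of the same group. For Trav the deepest library, vehicle replicate 10, was the closest of 12 of the 22. A chi-square of each pair's counts, which takes counting error into account, had a median per degree of freedom of 2.29 within and 3.09 between groups for Trbv, with 1 expected from counting alone. It was under 2 in 38.2% of the pairs within groups and in 8.26% of those between. For Trav it was 1.33 within and 1.31 between groups, near the counting error in both. Pearson correlations of log2 shares, in which rare segments weigh as much as common ones, hardly differed for Trbv (median 0.956 within and 0.953 between groups) or Trav (0.773 and 0.772). By them the closest library was of the same group for 14 of 22 libraries by Trbv and 16 of 22 by Trav. Pairs share libraries, so these values carry no test.

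**Figure D4:**
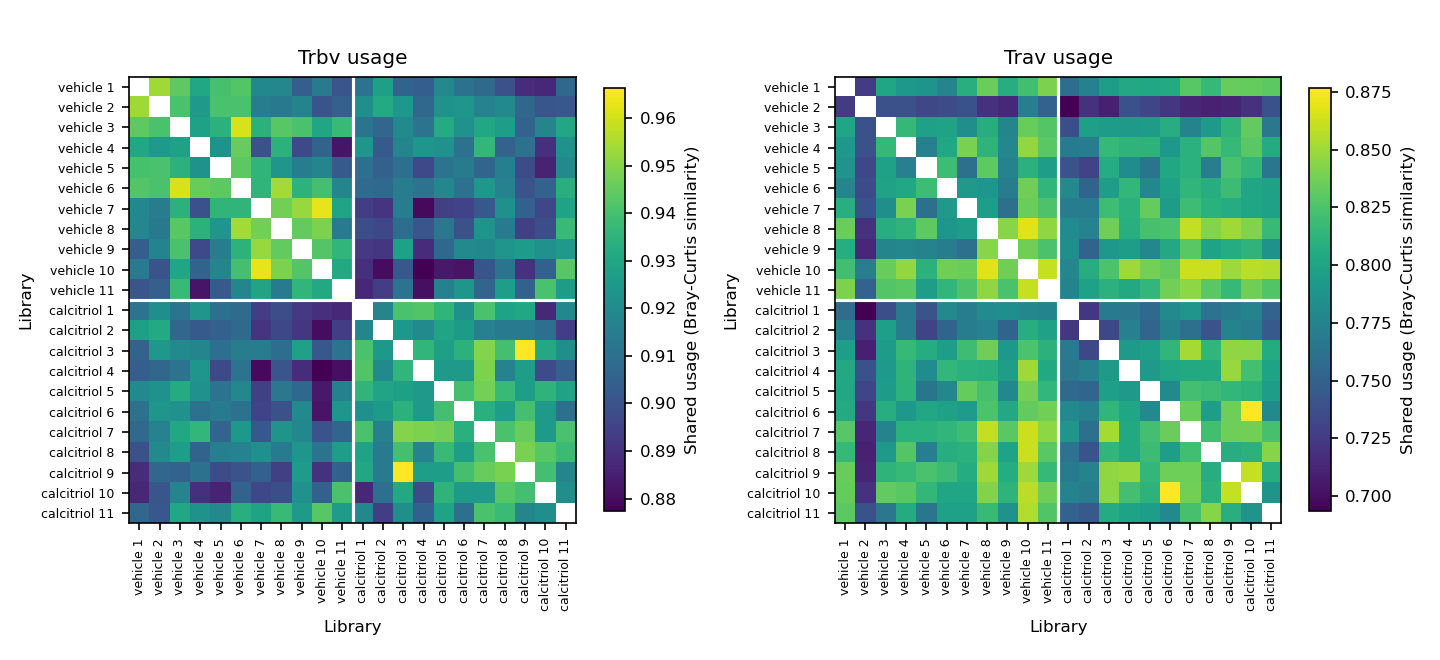
Bray-Curtis similarity of segment shares (colour) for each pair of the 22 libraries (both axes, vehicle then calcitriol, white lines between the groups), for Trbv at left and Trav at right, with separate colour scales. In the Trbv map the blocks within a group are brighter (median 0.930) than those between groups (0.910), and in the Trav map they are not (0.800 and 0.805).

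Whether libraries of 1 set resembled each other in Trbv usage more than libraries of different sets of the same group depended on the measure. The median Bray-Curtis similarity was 0.938 over the 14 pairs of libraries within a set and 0.929 over the 96 pairs of the same group from different sets, and the chi-square per degree of freedom was 1.91 and 2.38. The median Pearson correlation went the other way, at 0.945 and 0.958. The most alike Trbv pair was calcitriol replicates 3 and 9, from different sets, by Bray-Curtis similarity (0.966), vehicle replicates 1 and 2, of 1 set, by the chi-square (0.719), and vehicle replicates 8 and 9, from different sets, by Pearson correlation (0.992).

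The genes that complete, assemble and transcribe the receptor were measured in the same fit. The constant genes did not pass: Trac was at 301 ± 23.3 CPM with vehicle and 290 ± 19.0 with calcitriol, Trbc1 at 243 ± 26.4 and 259 ± 33.2, and Trbc2 at 348 ± 26.2 and 373 ± 24.0 (edgeR adjusted p of 0.440, 0.331 and 0.100, and for Trbc2 0.047 without calcitriol replicate 2, 0.0347 without vehicle replicate 3 and 0.0274 with surrogate variables). None of the 12 joining segments with enough counts of 80 rows passed. The counts of the next 3 lists stand beside 31.5% of all genes tested that passed, 16.1% higher and 15.5% lower. Of the 6 tested genes for CD3 chains and coreceptors 3 rose, Cd3d (log2 change 0.35 ± 0.05 SE), Cd3g (0.30 ± 0.07) and Cd3e (0.20 ± 0.07), and Cd4, the coreceptor of helper cells, fell (-0.13 ± 0.04). With sets summed, the 3 last named did not pass (adjusted p of 0.0866, 0.183 and 0.196). Leaving out 1 library ended the call of Cd3e for vehicle replicates 1, 3, 6 and 7 and for calcitriol replicates 5, 6, 8, 9, 10 and 11, at adjusted p between 0.0515 and 0.0711. Cd3e also lost its call with no filter (0.0518) and with the usage scaling (0.161). Cd4 lost it without the 4 libraries (0.0587) and with no filter (0.0669). Of 12 tested genes for V(D)J recombination and end joining, 6 rose and 1 fell. The gene for terminal transferase, Dntt, which adds bases at the junction in the thymus, rose from 4.33 ± 1.41 to 10.2 ± 3.68 CPM (log2 change 1.26 ± 0.19 SE, edgeR adjusted p = 9e-06). Lig4, the ligase of end joining, rose by 0.50 ± 0.10 on the log2 scale, and Xrcc6, a subunit of Ku, fell by 0.32 ± 0.06. With sets summed, 3 of the 6 (Dclre1c, Xrcc4 and Hmgb1) did not pass, at adjusted p of 0.102, 0.0776 and 0.228. Hmgb1 also lost its call when 1 of 10 libraries was left out (vehicle replicates 1, 2, 3, 4 and 7 and calcitriol replicates 5 to 9; adjusted p of 0.0521 to 0.0744). Rag1, which cuts the segments, had 17 counts in all and Rag2 none. Of 11 factors that bind receptor gene enhancers or act in T cell development, 4 rose and 2 fell, among them Ets1 (log2 change 0.68 ± 0.06 SE), Ikzf1 (0.44 ± 0.04) and Tcf7 (-0.67 ± 0.16), which passed with sets summed too, while Cbfb (adjusted p = 0.0974), Runx1 (0.132) and Tcf12 (0.261) did not. Leaving out 1 library also ended the call of Runx1 for vehicle replicates 2, 3, 4, 7 and 8 and calcitriol replicates 1, 2, 5 and 9 (adjusted p of 0.0503 to 0.0611), as did leaving out the 4 libraries (0.172). It ended that of Tcf12 for vehicle replicates 1, 2, 7, 8, 10 and 11 and calcitriol replicates 5, 6, 7, 9 and 11 (0.0517 to 0.0845).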

How the data were processed

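Raw gene counts for 22 libraries were taken from the table the authors deposited, made with STAR 2.7.10a, HTSeq 0.13.5 and build GRCm38, per the submitters' processing notes. The sources used here do not give their roles, the strand setting, the annotation release or the treatment of reads that match several places. The kit was a stranded total RNA kit with globin removal, per the labels' protocols. No unmapped sample column was present. Symbols, types, coordinates and transcript sequences came from GENCODE M21 on the same build. 345 identifiers had no symbol there.

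Genes were filtered with filterByExpr of edgeR 4.0.16 (R 4.3.3), scaled by TMM and tested by the quasi-likelihood F test with robust dispersions and Benjamini-Hochberg adjustment over all 11905 genes. The threshold was 0.05. On simulated counts for this comparison over 11817 genes, the fit found 98% of the genes given a log2 change of 1 and 66.7% of those given 0.5. No 2 libraries of a group were alike within sampling noise (chi-square per degree of freedom of 2.59 to 30.5 over 110 pairs), and none were merged.

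Shares were computed within a locus over its members, with 0.5 counts added before taking log2. Chi-square classes had at least 5 expected counts. Uniqueness was the percentage of 50-base windows of a segment found in no other annotated transcript. Summed levels, diversity and resemblance were described without a test, as scores over chosen segments. Alternatives were DESeq2 1.42.0, limma-voom (limma 3.58.1), other scalings and filters, 4 surrogate variables (sva 3.50.0), other indices and leaving out each library. Summing sets of alike libraries and leaving out 4 libraries were chosen after the data were seen.

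The segments, the gene lists and the naming rule were chosen with earlier results of these data known. The rule named the 10 leading Trbv and Trav segments, those past the threshold, superantigen-reactive, NKT and MAIT segments, Trgv and Trdv members, those at the count limit and the 6 most variable. Trbv14 and Trav15-1-dv6-1 were named after their values were seen, as were Trav7d-4, Trav6n-6 and Trbv5. Replicate numbers follow the order of deposit, which no label ties to a mouse or culture, and were not used to pair libraries.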

Additional observations from a re-analysis of the deposited data

How the results depend on the processing

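Of 32 other settings, summing the sets of alike libraries moved both counts of calls by over 1.5 times, to 2063 genes from 3755 and to 2 variable segments from 5. That setting leaves 5 samples per group. Leaving out each library gave 3467 to 3806 genes and 4 to 7 variable segments. With no filter on low counts 6 of 93 segments passed, beside 13.5% of all genes tested. Among the 6 were Trbv5 (log2 change 0.88) and Trgv2 (-3.21, a fitted value against a group at 0 and no bound), and Trbv13-2 was not. Trgv2 was included through its vehicle counts alone, and Trbv5 had 22.6% unique 50-base windows. Scaling to the summed Trav and Trbv counts left 1297 of 3216 calls higher (40.3%) against 1911 of 3755 (50.9%). Trbv1 and Trbv2 passed in all 32 settings, Trbv13-3 and Trbv17 in 31 and Trbv13-2 in 20. Trbv14 (log2 change 0.28, adjusted p = 0.0595) passed with DESeq2 (0.0283), limma-voom (0.0189) and surrogate variables (0.0265), without the 4 libraries (0.037) and without calcitriol replicate 2 (0.0161) or vehicle replicate 3 (0.0354), 4 (0.0407) or 6 (0.0372). Directions of segments near 0 changed: Trbv31 to 0.0084 without the 4 libraries, Trbv19 to -0.017, Trbv20 to -0.026 and Trav3-3 to -0.017 with the usage scaling, and Trav3-3 to -0.0015 with surrogate variables. Leaving out 1 library gave -0.043 to 0.011 for Trbv31, -0.0097 to 0.046 for Trbv19, -0.027 to 0.0503 for Trbv20 and -0.018 to 0.085 for Trav3-3. Differences in summed level and effective number stayed small, moving by less than 1 SD, but some changed sign. That in Trbv resemblance depended on the measure. The medians within and between groups were 0.930 and 0.910 by Bray-Curtis similarity, and 0.956 and 0.953 by Pearson correlation. Without TMM the summed Trbv difference went from 0.052 to -0.017 (log2). Leaving out 1 library gave -0.95 to 0.24 for the effective number of Trav segments (-0.26 with all), and, for the within-minus-between Pearson difference, 0.0008 to 0.0087 for Trbv and -0.0065 to 0.0026 for Trav. No paired analysis was possible because the labels give the libraries no replicate number, mouse or batch. Depth limits Trav, with a median of 524.5 counts per library.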
